A study of Mus musculus with 35 samples.

Results

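Treatment-matched polymorphonuclear myeloid-derived suppressor cells (PMN-MDSC) from pancreatic tumors were compared with PMN-MDSC from spleen. All mice in this comparison were treated, so the question was what separates these cells by where they were taken while the immune system is stimulated. The count table holds 35 libraries, and 7 of them were chosen by the column labels alone: 4 from tumor and 3 from spleen, labelled as granulocytic cells of treated mice. All 7 came from female C57BL/6 mice that carried orthotopic pancreatic tumors grown from T110299, 1 cell line derived from a pancreatic carcinoma of a mouse with Ptf1a-Cre and LSL-Trp53fl/R172H among its alleles. Both groups received 50 µg poly(I:C) complexed with polyethylenimine (poly(I:C)-PEI) intravenously on days 18 and 20. The untreated mice used for reference carried the same tumors. The authors' methods name glucose as the control injection, while their account of the sequencing says that these mice were left untreated. PMN-MDSC were sorted as CD11b+Ly6CloLy6G+ cells and monocytic MDSC (M-MDSC) as CD11b+Ly6ChiLy6G- cells, both after enrichment for CD11b. Also used here were 8 libraries of untreated PMN-MDSC, 4 from each site, and 7 of treated M-MDSC, 4 from spleen and 3 from tumor. Totals of the 7 libraries ranged from 1561674 to 3652121 counts. The columns carry no mouse number, so the libraries are called spleen 1 to 3 and tumor 1 to 4 in column order. Sample titles repeat numbers between the sites, so a tumor and a spleen library may come from 1 mouse. Column order was not used to pair such libraries. The tests treated the libraries as independent, and p-values measure the spread between these libraries.

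MDSC are myeloid cells that expand in tumor-bearing hosts and restrain T cells through enzymes that deplete amino acids, through prostaglandins and through inhibitory ligands. PMN-MDSC share their surface and morphology with neutrophils, which fill successive sets of granules while they mature in bone marrow. Poly(I:C) imitates viral double-stranded RNA, and the polymer carries it into the cytosol, where MDA5 and related sensors start a type I interferon response. Interferon acts through a complex that holds STAT2 and IRF9 on a short promoter element, while NF-kB and heat shock factors use elements of their own.

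The libraries labelled as tumor PMN-MDSC carried less of the neutrophil markers and more of the macrophage markers than those of spleen. Levels are given in CPM (counts per 1000000 counts of a library) after TMM scaling of the 7 libraries, a scaling that sets the typical gene to no change. Summed over 10 neutrophil markers, the level was 36871, 30459 and 31694 CPM in spleen 1 to 3 and 3756, 5883, 7992 and 11249 CPM in tumor 1 to 4. Over 12 monocyte and macrophage markers it was 969, 1611 and 1396 CPM in spleen against 6604, 6738, 4200 and 3536 CPM in tumor. A single gene, Ly6c2, which encodes the monocyte antigen Ly6C and ran the other way, held most of the spleen sum, at 682, 1167 and 1111 CPM against 114, 109 and 59.8 CPM in tumor 1 to 3 and 237 CPM in tumor 4. Without it the other 11 markers summed to 287, 445 and 285 CPM in spleen and 6491, 6629, 4140.2 and 3299 CPM in tumor. No library of either group entered the range of the other for these sums, and the tumor libraries with the most neutrophil signal had the least macrophage signal. In treated M-MDSC of tumor the same 12 genes summed to 7552 ± 3477 CPM of the library total (SD, n = 3), against 6076 ± 2213 in these tumor libraries (n = 4), whereas the 10 neutrophil markers summed to 650 ± 313 and 8030 ± 3024. How much of the differences below comes from macrophages among the sorted cells, and how much from the labelled cells themselves, was not tested. In bulk samples, fewer cells of a type and less RNA per cell cannot be told apart. Tumors went through a tissue dissociation kit and spleens did not, so that step and the site cannot be told apart either.

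Single markers showed the same split. Ly6g, which encodes the surface protein used to sort the cells, stood at 341, 288 and 374 CPM in the spleen libraries and 9.08, 23.5, 4.45 and 73.7 CPM in the tumor libraries. The groups did not overlap, tumor 4 kept the most, and the log2 fold change was -3.61 ± 0.78 (± SE here and below for all log2 values, edgeR's quasi-likelihood test, adjusted p 0.00486). S100a9, a calcium-binding alarmin abundant in neutrophils, was at 16062, 9426 and 9808 CPM in spleen and 716, 1719, 951 and 2428 CPM in tumor. Mrc1, the mannose receptor of macrophages, was at 5.98, 1.89 and 2.41 CPM in spleen and 764, 578, 424 and 356 CPM in tumor, a difference of 7.37 ± 0.52 (adjusted p 8.82e-05). C1qb, a chain of complement C1q made by macrophages, was at 22.4, 15.6 and 9.64 CPM in spleen and 1165, 1242, 728 and 593 CPM in tumor (log2 fold change 5.90 ± 0.47, adjusted p 0.000127). A gene is called here when it passes an adjusted p under 0.001 with at least a 2-fold change, which 8.39% of all genes tested did as higher in tumor and 4.62% as lower. Of the 12 macrophage markers, 8 were called higher and 1, Ly6c2, was called lower, while of the 10 neutrophil markers 1 was higher (G0s2) and 1 lower (Mmp9). Csf3r, the G-CSF receptor, differed less, at 1948, 6290.1 and 2709 CPM against 935, 861, 2332 and 1797 CPM, and its groups overlapped (log2 fold change -1.30 ± 0.51, adjusted p 0.0577).

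**Figure D1:**
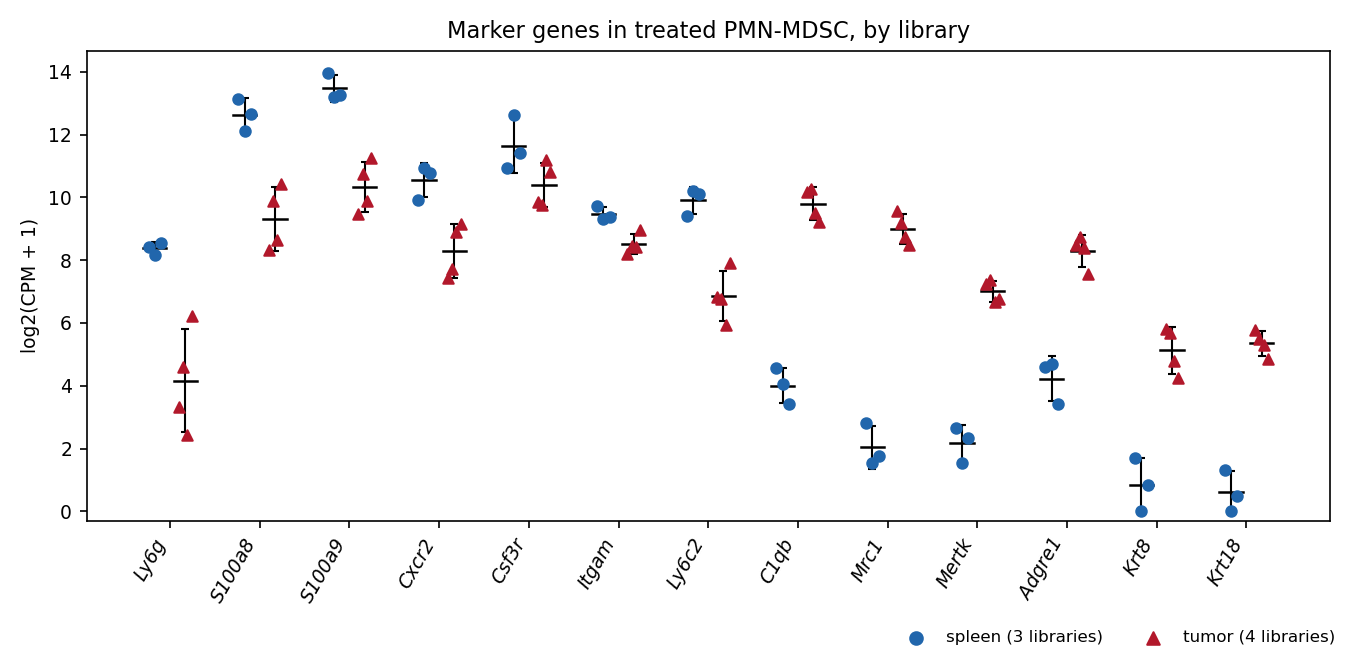
Marker genes in each of the 7 libraries on a log2(CPM + 1) axis, spleen as circles and tumor as triangles, with group mean and SD. Ly6g, S100a8 and S100a9 were lower in every tumor library, Csf3r overlapped, and the macrophage genes C1qb, Mrc1, Mertk and Adgre1 and the keratins Krt8 and Krt18 were higher in every tumor library.

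Markers of other cell types were also detected. Summed over 9 genes, epithelial markers were at 6.73, 11.8 and 4.42 CPM in spleen and 169, 138, 105 and 71.6 CPM in tumor. Only 3 of them, Krt8, Krt18 and Krt19, reached the count filter, and they did so through tumor counts. That these 3 were called higher therefore adds little to the sums. Untreated bulk tumors held 5859 ± 735 CPM of the same markers (SD, n = 4, library-total scale), so the tumor libraries carried a small fraction of that level. T and NK cell markers reached 4.48, 8.51 and 4.42 CPM in spleen and 40.8, 47.8, 48.9 and 12.5 CPM in tumor, where Cd4 made up most of the sum. Pancreatic acinar markers were at 0 to 0.804 CPM in spleen and 18.2 to 39.5 CPM in tumor. Erythroid markers were at 8.97, 0.946 and 0.402 CPM in spleen 1 to 3 and under 1 CPM in all tumor libraries. Endothelial markers were at 11.2 to 25.5 CPM in spleen and 49.95 to 92.6 CPM in tumor, and eosinophil markers at 16.9 to 33.6 and 42.9 to 156 CPM. Fibroblast markers overlapped narrowly, at 8.04 to 31.4 and 31.1 to 117 CPM. B cell markers ran the other way, at 84.5, 136 and 143 CPM in spleen and 39.9, 37.1, 33.2 and 14.99 CPM in tumor. Dendritic cell, platelet, and mast cell and basophil markers were at 1.61 to 7.09, 67.9 to 138 and 6.73 to 12.9 CPM in spleen and 6.24 to 24.3, 73.2 to 132 and 5.45 to 12.5 CPM in tumor. The part of these cells in the results was not tested.

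Testing covered the 8031 genes averaging 25 counts or more over the 7 libraries, of which 1045 passed an adjusted p under 0.001 with at least a 2-fold change in edgeR's quasi-likelihood test. Of these, 674 were higher in tumor (8.39%) and 371 were lower (4.62%). All 1045 had tumor and spleen libraries that did not overlap in CPM. Among genes that passed this filter the differences were larger upward. The median log2 fold change of the calls was 3.65 for higher and -2.05 for lower genes, and 446 higher but 36 lower calls were past 8-fold. The filter has a part in this, since a mean over 4 tumor and 3 spleen libraries admits genes with almost no spleen counts. With at least 10 counts in every library, 316 of 6688 genes were called higher and 238 lower. Over all genes tested the median was 0.04, and it was 0.28 with upper-quartile scaling, under which 779 genes were called higher and 265 lower. At an adjusted p under 0.05 with 2-fold change, 1967 genes (24.5%) were higher and 1380 (17.2%) lower, and this looser limit is named wherever it is used. The number of calls leaned on single libraries, since leaving out spleen 2 left 50 and leaving out spleen 3 left 234, while leaving out tumor 4 left 1020 and each of the other tumor libraries between 294 and 367.

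**Figure D2:**
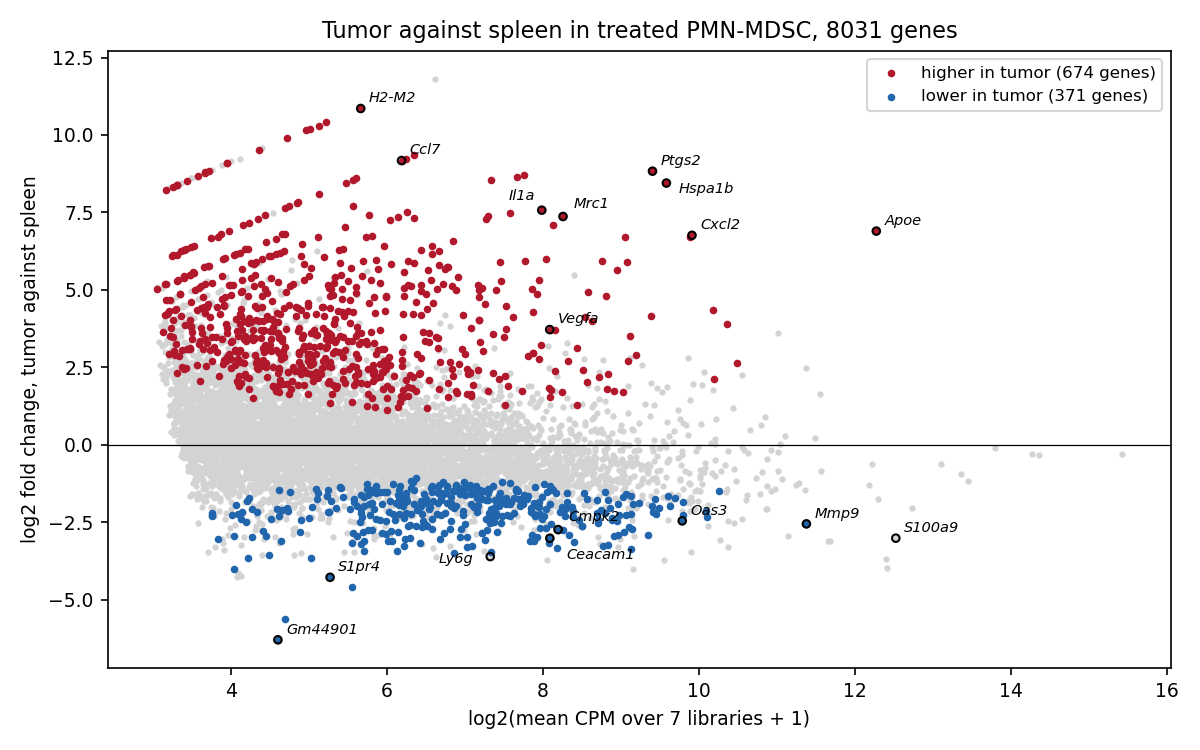
Log2 fold change of tumor against spleen (vertical) against the mean level, log2(CPM + 1) over 7 libraries (horizontal), for 8031 genes, with 674 called higher in red, 371 called lower in blue and named genes ringed. The largest upward differences lie among genes with few or no spleen counts, and the straight bands at upper left are genes with 0 or 1 spleen count, for which the fitted value depends on the prior count.

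The genes with the largest fitted differences had almost no spleen counts. For genes at 0 in all spleen libraries the fold is given as a bound against 3 counts over the spleen group (0.505 CPM), which covers counting error only. H2-M2, a non-classical class I gene, was at 0 in all spleen libraries and 67.6, 84.3, 127 and 69.1 CPM in tumor, at least 172-fold higher. Psd3, at 88.7, 72.7, 58.2 and 34.1 CPM in tumor, was at least 126-fold higher, and Mmp2, a gelatinase, at 72.6, 74.2, 53.8 and 18.7 CPM, at least 109-fold higher. Among them also stood Nr4a2, an orphan nuclear receptor of the immediate early kind, which reached 52.4, 33.9, 111 and 39.96 CPM in tumor, at least 117-fold higher. Cp, ceruloplasmin, had 1 spleen count and 149, 167, 142 and 102 CPM in tumor, a ratio of 854 with a 95% counting interval from 153 to 33760. Il23a, the p19 chain of interleukin 23, had 1 spleen count and 42.2, 58.8, 129 and 292 CPM in tumor, a ratio of 657 with an interval from 118 to 25984. In all, 98 of the 674 higher calls had at most 3 spleen counts and 19 had none.

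At the other end, the lowest fold change belonged to Gm44901, at 62.03, 47.3 and 51.03 CPM in spleen and 0.454, 0.869, 0.404 and 0.833 CPM in tumor (log2 fold change -6.30 ± 0.33). S1pr4, a sphingosine 1-phosphate receptor of lymphoid and myeloid cells, was at 77.7, 72.8 and 95.6 CPM against 1.59, 7.82, 0.809 and 6.66 CPM (-4.28 ± 0.57, adjusted p 0.000532). Rab3d, a small GTPase of secretory granules, was at 496, 273 and 229 CPM against 26.5, 52.2, 19.4 and 21.2 CPM (-3.47 ± 0.42, adjusted p 0.000354). For these 3 genes every tumor library was below every spleen library. Rasgrp2, an exchange factor for the integrin-activating GTPase Rap1, fell by 3.32 on the log2 scale with the tumor libraries close together at 28.8, 26.1, 22.6 and 29.1 CPM.

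Promoters of 5 genes on which the gene groups below turn are shown first, as the 250 bases before the RefSeq start on build GRCm38.p6, 5′ to 3′ on the gene's strand, with capitals for the motif searched in that gene. The heat shock gene Hspa1b (chr17:34959239-34959488, minus strand) was searched for GAANNTTC. The chemokines Cxcl1 (chr5:90890995-90891244, plus strand) and Cxcl2 (chr5:90903649-90903898, plus strand) were searched for an NF-kB motif of 10 letters, which is the run in capitals. The interferon-stimulated genes Oas3 (chr5:120777660-120777909, minus strand) and Ifit3 (chr19:34583279-34583528, plus strand) were searched for the interferon-stimulated response element, as 2 copies of GAAA with any 2 bases between them. Both strands were read, so the capitals in Ifit3 mark matches on the opposite strand.
Hspa1b: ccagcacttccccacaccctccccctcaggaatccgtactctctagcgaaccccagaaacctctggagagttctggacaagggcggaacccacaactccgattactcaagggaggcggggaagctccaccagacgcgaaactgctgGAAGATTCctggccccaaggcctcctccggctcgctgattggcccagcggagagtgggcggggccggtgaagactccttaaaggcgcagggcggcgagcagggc
Cxcl1: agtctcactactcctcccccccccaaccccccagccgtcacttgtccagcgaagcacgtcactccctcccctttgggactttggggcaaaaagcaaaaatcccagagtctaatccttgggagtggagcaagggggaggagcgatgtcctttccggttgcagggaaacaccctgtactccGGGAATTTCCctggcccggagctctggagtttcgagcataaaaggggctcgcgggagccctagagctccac
Cxcl2: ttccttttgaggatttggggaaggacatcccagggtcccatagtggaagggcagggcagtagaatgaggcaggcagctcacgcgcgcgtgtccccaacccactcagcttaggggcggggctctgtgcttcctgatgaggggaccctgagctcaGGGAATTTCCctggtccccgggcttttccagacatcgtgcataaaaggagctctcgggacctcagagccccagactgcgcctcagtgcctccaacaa
Oas3: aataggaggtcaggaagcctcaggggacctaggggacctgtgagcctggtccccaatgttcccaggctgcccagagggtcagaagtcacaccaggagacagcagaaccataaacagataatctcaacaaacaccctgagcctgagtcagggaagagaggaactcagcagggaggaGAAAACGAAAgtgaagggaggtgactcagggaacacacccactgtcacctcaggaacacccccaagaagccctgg
Ifit3: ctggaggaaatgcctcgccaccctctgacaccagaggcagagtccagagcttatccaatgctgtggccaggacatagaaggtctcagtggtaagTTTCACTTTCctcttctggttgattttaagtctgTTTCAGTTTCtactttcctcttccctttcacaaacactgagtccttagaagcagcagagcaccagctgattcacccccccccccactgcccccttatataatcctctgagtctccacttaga

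Counted over the full windows, which add 50 bases after the start, GAANNTTC stood in 2582 of 32851 mouse windows (7.86%) and in 3 of the 4 heat shock genes with a window, Hspa1a, Hspa1b and Hsph1. The NF-kB motif stood in 29 windows (0.0883%), among them Cxcl1, Cxcl2 and Cxcl3 of the 7 CXC chemokines with a window. The interferon element stood in 1131 windows (3.44%) and in 22 of the 38 interferon-stimulated genes with a window. A match describes letters and is not evidence of binding.

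Most chemokine genes that could be tested were higher in tumor. Only 9 of 14 CC and 8 of 13 CXC chemokines reached the count filter. Some reached it through tumor counts alone, so the counts and medians over tested members lean upward. Of the 9 CC chemokines 8 were called higher and none lower, with a median log2 fold change of 5.87. All 8 CXC chemokines tested were higher at the looser limit and 6 were called, with a median of 7.13. Without spleen 2 only 1 CC and 1 CXC chemokine were called. Ccl7 (chr11:82045712-82047525, plus strand), which draws CCR2-bearing monocytes, was at 0.747, 0 and 0 CPM in spleen and 178, 172, 69.9 and 82.004 CPM in tumor. Its single spleen count gave a ratio of 815 with a 95% counting interval from 146 to 32212. Ccl8, a ligand of several CC receptors, likewise had 1 spleen count, against 108, 98.2, 82.1 and 45.8 CPM in tumor, a ratio of 526 with an interval from 94.3 to 20805. Ccl3, an inflammatory chemokine that draws monocytes, was at 0.747, 2.36 and 1.61 CPM in spleen and 103, 170.1, 293 and 499.5 CPM in tumor (7.28 ± 0.75, adjusted p 0.000192), with the highest level in tumor 4. Ccl4, its close relative, was at 1.49, 2.84 and 2.41 CPM against 101, 156, 112 and 185 CPM (5.87 ± 0.37, adjusted p 6.65e-05). Ccl6 was the exception, at 478, 959 and 238 CPM and 1117, 805, 808 and 954 CPM with groups that overlapped (0.72 ± 0.43, adjusted p 0.184).

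Ligands of CXCR2, the receptor that draws neutrophils, were high in tumor. Cxcl2 was at 17.9, 11.3 and 16.9 CPM in spleen and 766, 936, 1832 and 3136 CPM in tumor (6.76 ± 0.67, adjusted p 0.000165). Cxcl1, with the same motif in its promoter, had 1 spleen count and 27.7, 42.3, 37.6 and 66.6 CPM in tumor, a ratio of 243 with an interval from 43.4 to 9619. For both, tumor 4 was the highest library. Cxcr2 itself ran the other way, at 972, 1972 and 1745 CPM in spleen and 172, 208, 478 and 574 CPM in tumor, a difference past the looser limit only (-2.13 ± 0.48, adjusted p 0.0057). Of the 7 chemokine receptors tested 3 were called higher, among them Cx3cr1 and the scavenging receptor Ccrl2. Cxcl10, an interferon-inducible ligand, was closer between sites, at 17.9, 55.8 and 45.8 CPM against 75.3, 103, 74.4 and 198 CPM (1.48 ± 0.47, adjusted p 0.0259).

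Among cytokines the split was uneven. Il1a, an alarmin of the interleukin 1 family, was at 3.74, 2.36 and 1.21 CPM in spleen and 234, 265, 454 and 803 CPM in tumor (7.57 ± 0.68, adjusted p 0.000142), the only call among 10 genes of that family and its receptors, whose median was -0.22 (0.01 with upper-quartile scaling). Il1b was detected at both sites, at 416, 1536 and 252 CPM and 2459, 2503, 6045 and 5296 CPM, and passed the looser limit only (2.47 ± 0.69, adjusted p 0.0158). Tnf was at 31.4, 40.2 and 20.1 CPM against 89.9, 186, 181 and 605 CPM (3.12 ± 0.66, adjusted p 0.00455), with tumor 4 far above tumor 1. Of 13 genes of the TNF superfamily, 3 were called higher, the costimulatory pair Tnfsf9 and Tnfrsf9 and the receptor Cd40. Tnfrsf9, or 4-1BB, had 1 spleen count and 36.8, 24.6, 18.6 and 22.9 CPM in tumor, a ratio of 162 with an interval from 28.95 to 6431. Of 15 genes for NF-kB subunits and their feedback inhibitors 3 were called higher and none lower, and all 3 were feedback genes: Tnfaip3, Nfkbid and Nfkbie. None of the 15 was called without spleen 1, spleen 2, spleen 3, tumor 2 or tumor 3. Tnfaip3, the ubiquitin-editing inhibitor A20, was at 61.3, 135 and 90.8 CPM against 808, 1307, 1475 and 4199 CPM (4.34 ± 0.67, adjusted p 0.000987). The subunit genes Rela, Relb, Nfkb1 and Rel had fold changes between -0.31 and 0.84 and none passed the looser limit.

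Suppressive effectors were mixed: of 14 tested, 2 were called higher and 1 lower, against 8.39% and 4.62% of all genes, and the median was 0.21. Ptgs2 (chr1:150100031-150108227, plus strand), the inducible cyclooxygenase COX-2 that commits arachidonate to prostaglandins, was at 1.49, 5.67 and 0.402 CPM in spleen and 732, 849, 1776 and 1365 CPM in tumor. No tumor library was below 732 CPM and no spleen library above 5.67 CPM (8.83 ± 0.79, adjusted p 0.000142). Pdcd1lg2, which encodes the inhibitory ligand PD-L2, was at 0 in all spleen libraries and 16.8, 17.4, 16.2 and 9.57 CPM in tumor, at least 29.7-fold higher. Nos2, inducible nitric oxide synthase, overlapped between the sites, at 2.99, 5.67 and 195 CPM and 11.8, 28.1, 53.8 and 379 CPM (0.76 ± 1.44, adjusted p 0.673), and the value was -1.18 without tumor 4 and 4.66 without spleen 3. Cd274, or PD-L1, was at 68.01, 190.1 and 90.01 CPM against 199, 232, 394 and 451 CPM and passed the looser limit (1.45 ± 0.43, adjusted p 0.0204). Vsir, the inhibitory receptor VISTA, was called lower, at 1200.3, 1233 and 1398 CPM against 331, 385, 406 and 488 CPM (-1.67 ± 0.23).

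Enzymes and receptors of the lipid mediator pathways went both ways, and all 13 genes tested passed the looser limit. Of these 8 were higher, among them Ptgs1, Ptgs2, Tbxas1 and Hpgds of the prostanoid branch and also Alox15, and 5 were lower, namely Alox5, Alox5ap, Lta4h and the receptor Ltb4r1 of the leukotriene branch and Ptger2, a prostaglandin E2 receptor. Alox5, 5-lipoxygenase, was at 506, 446 and 287 CPM in spleen and 58.8, 97.1, 133 and 154 CPM in tumor (-1.90 ± 0.35, adjusted p 0.00221). Hpgds, hematopoietic prostaglandin D synthase, was at 2.24, 3.31 and 0.402 CPM against 74.4, 81.4, 64.3 and 35.4 CPM and was called (5.05 ± 0.56, adjusted p 0.000241).

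Immediate early and heat shock genes were higher in tumor in large part. Of 28 genes, 15 were called higher and none lower, and at the looser limit 22 were higher and 1 was lower, with a median of 3.12. Hspa1b, an inducible Hsp70 chaperone, was at 2.99, 2.36 and 5.63 CPM in spleen and 1311, 1646, 998 and 1384 CPM in tumor (8.45 ± 0.45, adjusted p 3.64e-05). Its near copy Hspa1a followed at 1.49, 0 and 0.804 CPM and 118, 153, 87.7 and 168 CPM, and how fragments were divided between these copies is uncertain. Hsph1, a co-chaperone of Hsp70, was at 1.49, 2.84 and 1.21 CPM against 189, 182, 131 and 154 CPM (6.43 ± 0.35, adjusted p 3.64e-05). The constitutive Hspa8 moved less, at 429, 342 and 422 CPM against 2048, 2081, 1246 and 1579 CPM (2.13 ± 0.29). For these chaperones the 4 tumor libraries were close to each other and none came near the spleen range.

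Among the transcription factors of the immediate early kind, Fosb was at 2.24, 4.73 and 3.21 CPM in spleen and 410.3, 391, 711 and 434 CPM in tumor (7.10 ± 0.41, adjusted p 4.44e-05). Egr1 was at 12.7, 14.7 and 19.3 CPM against 536, 862, 2336 and 2792 CPM (6.70 ± 0.74), highest in tumor 3 and tumor 4. Klf4, which also guides monocyte differentiation, had 3 spleen counts and 125, 93.9, 83.3 and 70.8 CPM in tumor, a ratio of 195 with an interval from 66.5 to 946. Such genes are known to respond to the handling of tissue, and the dissociation that only the tumors went through cannot be told apart from the site. Of 16 genes of the unfolded protein and integrated stress response 4 were called higher, Hspa5, Pdia4, Pdia6 and Ppp1r15a, and none lower (median 1.19). Ppp1r15a, a phosphatase subunit that restores translation after stress, was at 18.7, 28.4 and 17.3 CPM against 334, 444, 689 and 1136 CPM (4.92 ± 0.52, adjusted p 0.000218).

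Hypoxia genes were higher in part. Of 18 hypoxia genes 4 were called higher and none lower, against 8.39% and 4.62% of all genes, and the median was 1.71. Without spleen 3 no hypoxia gene was called, and without spleen 2 only 1 was. Of 19 glycolysis genes 2 were called higher and 2 lower, and 4 and 5 at the looser limit against 24.5% and 17.2% of all genes, with a median of 0.06. No glycolysis gene was called without spleen 2, spleen 3, tumor 2 or tumor 3. Vegfa, the main angiogenic growth factor, was at 47.1, 28.8 and 26.9 CPM in spleen and 362, 336, 624 and 468 CPM in tumor (3.72 ± 0.35, adjusted p 0.000153). P4ha1, a prolyl hydroxylase of collagen, was at 3.74, 11.3 and 7.63 CPM against 125, 109.5, 166 and 178 CPM (4.20 ± 0.37, adjusted p 0.000142). Hif1a, the oxygen-regulated subunit of the factor itself, was at 114, 149 and 129 CPM against 404, 381, 361 and 362 CPM (1.53 ± 0.20), and its tumor libraries were nearly equal. Bnip3 and Egln3 split the tumor libraries, at 48.6, 50.1, 154 and 173 CPM and 27.9, 39.7, 151 and 163 CPM in tumor 1 to 4. In spleen Bnip3 was at 11.96, 35.9 and 24.9 CPM and Egln3 at 13.5, 14.2 and 12.9 CPM, so the excess lay mainly in tumor 3 and tumor 4. In glycolysis, Slc2a3, the high-affinity glucose transporter of neutrophils, was lower, at 918, 900.4 and 548 CPM against 83.96, 131, 151 and 179.8 CPM (-2.53 ± 0.32), while Pfkl, liver-type phosphofructokinase, was higher at 30.6, 18.9 and 28.5 CPM against 94.4, 88.4, 136 and 159.8 CPM (2.20 ± 0.30).

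Of 20 genes for matrix, angiogenesis and tissue remodelling 9 were called higher and 1, Mmp9, lower, with a median of 3.67. Mmp12, the macrophage elastase, had 1 spleen count and 117, 80.5, 80.1 and 45.4 CPM in tumor, a ratio of 514 with an interval from 92.0 to 20308. Hbegf, a ligand of the EGF receptor, had 3 spleen counts and 29.04, 26.9, 65.1 and 29.97 CPM in tumor, with tumor 3 above the rest, a ratio of 70.6 with an interval from 24.007 to 344. Of the fibroblast markers, the collagen genes Col1a1, Col1a2 and Col3a1 could be tested and none was called, while Col1a2 passed the looser limit.

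The class II and class I lists of antigen presentation had different medians. All 7 class II genes tested were higher at the looser limit and 3 were called, with a median of 4.19. Leaving out any single library but tumor 4 left no class II call, and without tumor 4 all 7 were called. Cd74, the invariant chain that guides class II molecules, was at 65.8, 77.1 and 46.2 CPM in spleen and 1388, 1785, 964 and 323 CPM in tumor (4.15 ± 0.60, adjusted p 0.000729). H2-Ab1, a class II chain, was at 14.9, 11.3 and 7.63 CPM against 305, 412, 251 and 61.6 CPM (4.54 ± 0.66, adjusted p 0.000753). Both were lowest in tumor 4, which was still above every spleen library. For class I and peptide loading the median was -0.32 over 22 genes. Calr was called higher and Psmb9 and Tap2 were called lower, against 8.39% and 4.62% of all genes. Psmb9, an immunoproteasome subunit, was at 98.7, 158 and 104 CPM against 40.6, 41.1, 38.8 and 42.9 CPM (-1.56 ± 0.21). Tap2, a chain of the peptide transporter, was left at 75.3, 77.4, 70.4 and 66.2 CPM in tumor against 149, 208 and 174 CPM in spleen (-1.29 ± 0.18).

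Some lysosomal and lipid genes were higher in tumor, as most macrophage markers were. Of 21 lysosomal genes 7 were called higher and none lower (median 1.81), and of 16 lipid handling and scavenger genes 5 were called higher and none lower (median 1.22). Apoe, a lipid carrier secreted by macrophages, was at 118, 62.4 and 36.97 CPM in spleen and 10315, 11336, 7935 and 4769 CPM in tumor (6.90 ± 0.64, adjusted p 0.000152). Lgmn, a lysosomal endopeptidase, was at 26.9, 13.7 and 11.3 CPM against 1117, 1044, 657 and 564 CPM (5.64 ± 0.47, adjusted p 0.000131). Trem2, a lipid-sensing receptor, had 1 spleen count and 47.4, 29.6, 26.7 and 20.4 CPM in tumor, a ratio of 199 with an interval from 35.5 to 7869. In these 3 genes tumor 1 and tumor 2 were highest, as in the macrophage marker sum, and the contribution of macrophages was not tested.

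Of 24 myeloid transcription factors 6 were called higher and 1 lower. Maf, which drives macrophage programs, was higher at 8.97, 5.67 and 2.81 CPM against 255, 215, 153 and 149 CPM (5.12 ± 0.42, adjusted p 0.000127). Cebpd, a C/EBP factor, was the call in the other direction, at 338, 429.9 and 245 CPM against 52.6, 60.8, 80.9 and 83.7 CPM (-2.28 ± 0.26, adjusted p 0.000294). Of 22 cytokine receptor genes 2 were called higher and 1 lower, near the shares of 8.39% and 4.62% over all genes, and the median was -0.05 (0.20 with upper-quartile scaling). Il17ra, the interleukin 17 receptor, was lower at 679, 1014 and 763 CPM against 154, 149, 244 and 244 CPM (-2.05 ± 0.28), while Il6st, the shared gp130 chain, was higher at 2.99, 3.31 and 1.61 CPM against 59.7, 52.2, 30.7 and 41.6 CPM (4.15 ± 0.39). Of 13 Bcl-2 family genes 4 were called higher, the antiapoptotic Bcl2a1a, Bcl2a1b and Bcl2a1d and the proapoptotic Bax. Bcl2a1d was at 3.74, 3.31 and 4.02 CPM against 105, 131, 153 and 113 CPM (5.07 ± 0.26), although fragments among the Bcl2a1 copies may have been divided arbitrarily. Of 19 cell cycle and replication genes 2 were called higher and 1 lower, again near the shares over all genes. Cdkn1a, the cell cycle inhibitor p21, was at 2.24, 8.51 and 3.21 CPM against 165, 158, 240.2 and 261 CPM (5.41 ± 0.46), and Ccnd3, cyclin D3, at 794, 656 and 632 CPM against 83.3, 114, 91.8 and 163 CPM (-2.62 ± 0.28). Of 38 ribosomal protein genes none was called, 18 were higher at the looser limit, and the median was 0.98. None of the 9 sterol synthesis genes tested was called, and of 27 nuclear genes of oxidative phosphorylation 1 was (Cycs, cytochrome c, higher). Setting genes at 0 in spleen to their bound left the medians given for the lists of function as they are.

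**Figure D3:**
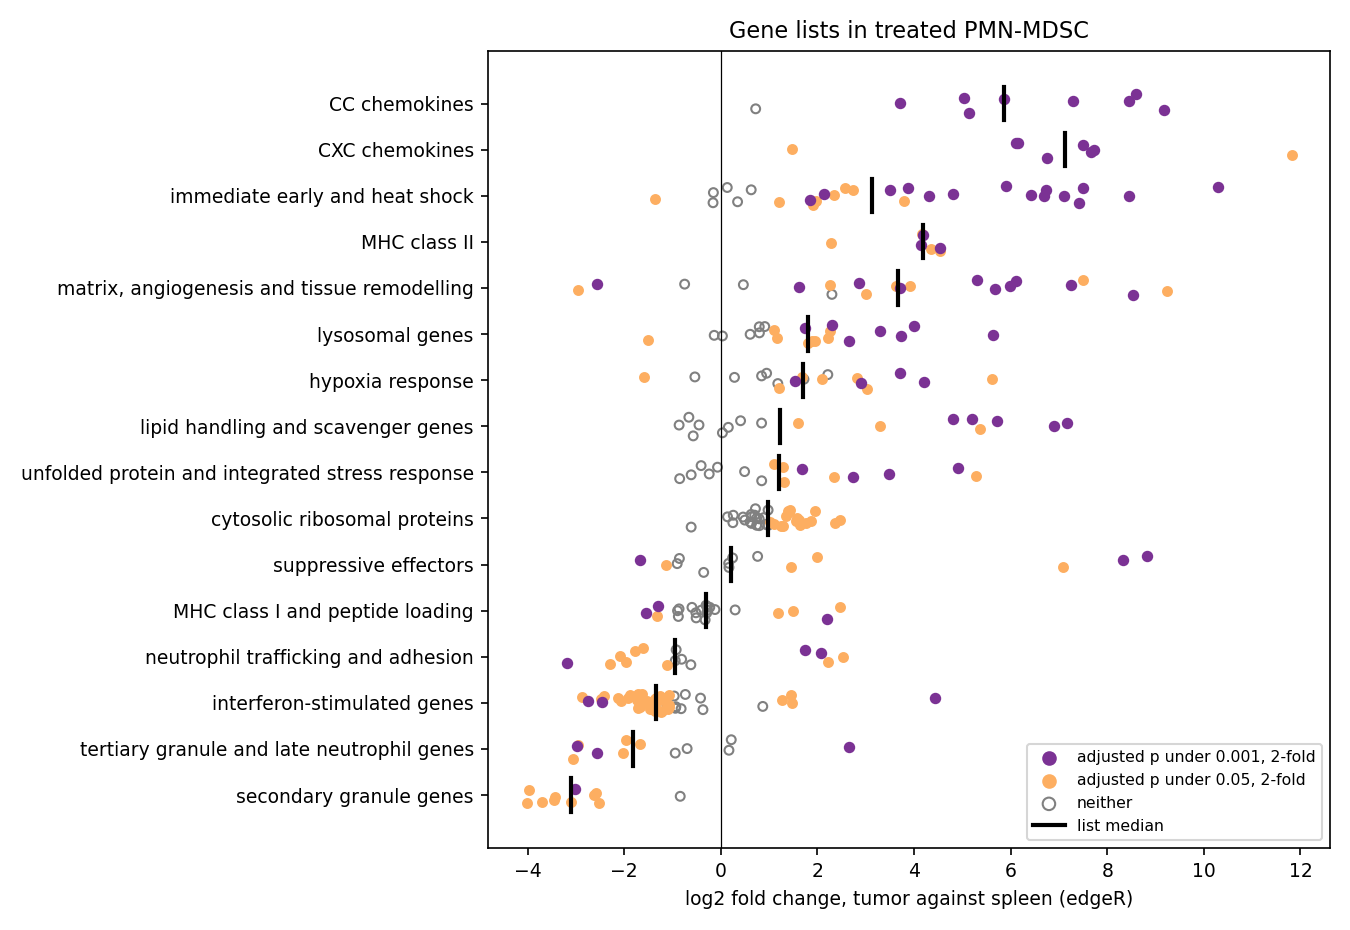
Log2 fold change of tumor against spleen for the tested members of 16 gene lists, with a bar for each list's median. The medians of the chemokine, class II and immediate early and heat shock lists lie to the right of zero and those of the interferon-stimulated and both granule lists to the left, while single members lie on the other side, such as Iigp1 (4.44) and Ctsb (2.65).

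Genes of secondary and tertiary neutrophil granules were lower in tumor, mostly at the looser limit. Of 11 secondary granule genes 10 were lower at that limit and 1, Ceacam1, was called, with a median of -3.10. Among 12 tertiary granule and late neutrophil genes 7 were lower and 1 higher at that limit, with a median of -1.82. Only 2 of 8 primary granule genes could be tested, and at that limit Serpinb1a, a protease inhibitor, was lower (-3.25 ± 0.77, adjusted p 0.00732) and Gusb, a lysosomal glucuronidase, higher (1.92 ± 0.31, adjusted p 0.00121). Ceacam1, an adhesion receptor, was at 754, 441 and 434 CPM in spleen and 69.7, 90.4, 37.6 and 69.5 CPM in tumor (-3.02 ± 0.34, adjusted p 0.000264). Mmp9, the gelatinase stored in tertiary granules, was at 5716, 4651 and 4776 CPM against 503, 739, 1145 and 1048 CPM (-2.56 ± 0.35, adjusted p 0.00058). Ltf, lactoferrin, varied widely within groups, at 27276, 5571 and 2363 CPM in spleen and 457, 2184, 107 and 224 CPM in tumor. Tumor 2 of Ltf came close to the lowest spleen library without passing it (-3.98 ± 1.17, adjusted p 0.0194). Spleen 1 was also highest for Camp, the cathelicidin, at 3023, 478 and 180.4 CPM, against 65.1, 213, 6.06 and 16.2 CPM in tumor, where tumor 2 overlapped with spleen 3. The only gene of these lists called higher was Ctsb, cathepsin B, which is also a lysosomal gene, at 263, 316 and 483 CPM against 2777, 2592, 1811 and 1744 CPM (2.65 ± 0.35).

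Of 15 trafficking and adhesion genes 2 were called higher and 1 lower, and at the looser limit 4 were higher and 7 lower, against 24.5% and 17.2% of all genes. Leaving out any library but tumor 4 left no call among them. Itgal, the alpha chain of the integrin LFA-1, was at 678, 1496 and 637 CPM against 247, 190.3, 185 and 136 CPM (-2.30 ± 0.36, adjusted p 0.00108), while Itgb1, the beta 1 integrin chain, was called higher at 69.5, 82.3 and 119 CPM against 347, 312, 289 and 256 CPM (1.74 ± 0.25). Itgam, the CD11b chain on which the cells were enriched, was lower in every tumor library than in every spleen library but did not reach a 2-fold change, at 848, 629 and 659 CPM against 295, 348, 339.6 and 498 CPM (-0.94 ± 0.25, adjusted p 0.0129). In the oxidase and redox list 3 of 21 genes were called lower and 3 higher, against 4.62% and 8.39% of all genes. At the looser limit 7 were lower and 8 higher, against 17.2% and 24.5%. Rac2, the GTPase that activates the oxidase, was at 1382, 1418 and 1336 CPM against 238, 344, 379 and 451 CPM (-1.97 ± 0.27). Prdx1, a peroxiredoxin, ran the other way at 10.5, 5.67 and 6.83 CPM against 126, 102, 82.5 and 79.1 CPM (3.70 ± 0.30).

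Interferon-stimulated genes were lower in tumor, mostly at the looser limit, although both groups had received poly(I:C)-PEI. Of 50 genes 45 had a negative fold change and the median was -1.34. At the looser limit 36 were lower and 4 higher, against 17.2% and 24.5% of all genes. At the stricter limit 2 were lower and 1 higher, no more than the shares of 4.62% and 8.39% over all genes. None was called lower without spleen 2, spleen 3, tumor 1, tumor 2 or tumor 3. Cmpk2, a nucleotide kinase induced by interferon, was at 460.4, 766 and 474 CPM in spleen and 84.6, 82.3, 48.5 and 124 CPM in tumor (-2.74 ± 0.34, adjusted p 0.000402). Oas3, a sensor enzyme that makes oligoadenylates on double-stranded RNA, was at 1217, 2227 and 1514 CPM against 282, 285, 217 and 419 CPM (-2.46 ± 0.32, adjusted p 0.000485). In both, the highest tumor library lay below the lowest spleen library. Ifit3, an interferon-induced RNA-binding family member, was at 1133, 3986 and 2324 CPM against 375, 347, 292 and 771 CPM and passed the looser limit (-2.48 ± 0.50, adjusted p 0.0034). Rsad2, or viperin, was at 916, 2607 and 1518 CPM against 286, 291, 257 and 701 CPM (-2.13 ± 0.47, adjusted p 0.00555). Isg15, a ubiquitin-like modifier, was at 169.7, 426 and 325 CPM against 107, 79.7, 80.1 and 191 CPM, where tumor 4 overlapped with spleen 1 (-1.43 ± 0.40). For Rsad2, Ifit1 and Irf9 it was again tumor 4 that stood highest among the tumor libraries. The 4 genes higher at the looser limit were Cxcl10, Cd274, Gbp3 and Iigp1. Of these only Iigp1, an immunity-related GTPase, was called, at 2.99, 1.89 and 3.21 CPM against 83.5, 74.5, 42.5 and 35.8 CPM (4.44 ± 0.45, adjusted p 0.000183).

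**Figure D4:**
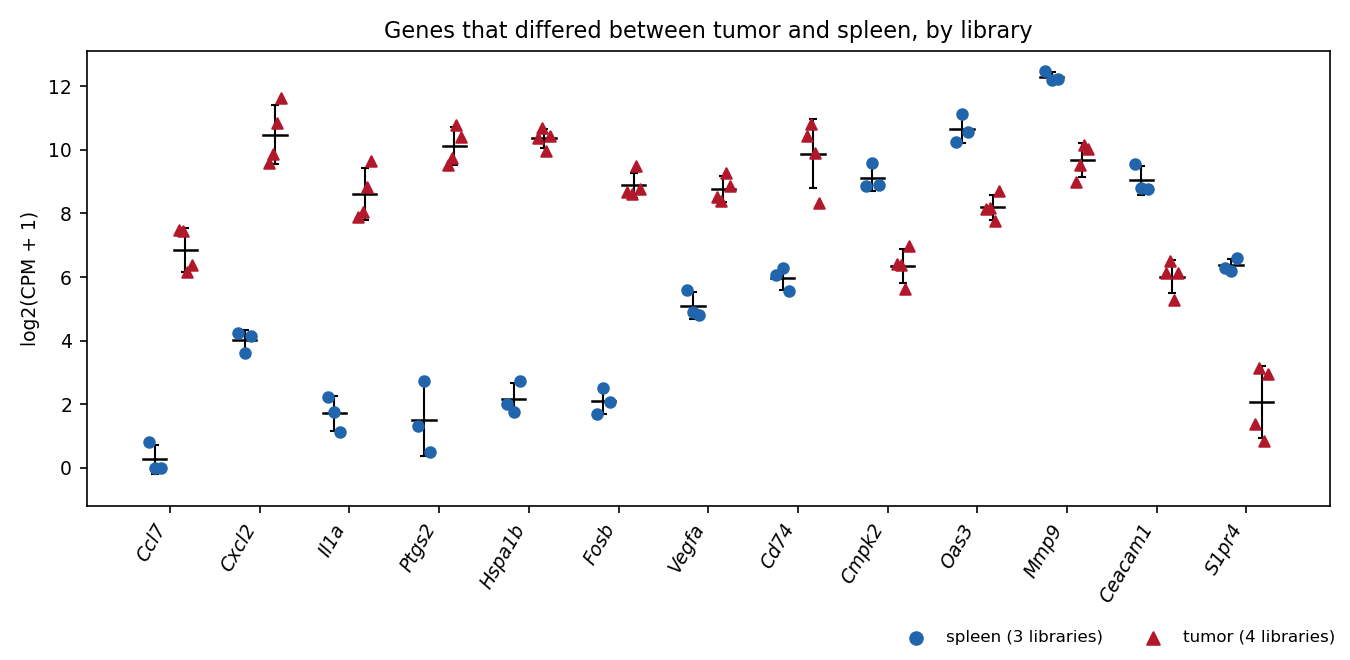
Levels of 13 genes in each library on a log2(CPM + 1) axis, spleen as circles and tumor as triangles, with group mean and SD. Genes from Ccl7 to Cd74 were higher in all 4 tumor libraries than in all 3 spleen libraries, and those from Cmpk2 to S1pr4 were lower.

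The tumor libraries also differed among themselves. Tumor 1 and tumor 2 were the closest pair, with a correlation of 0.972 across genes on the log2 scale, and tumor 3 and tumor 4 followed with 0.935, while the other tumor pairs were at 0.865 to 0.915. In spleen the correlation was 0.954 between spleen 2 and spleen 3 and 0.918 and 0.919 between these and spleen 1, against 0.573 to 0.755 between tumor and spleen libraries. Genes are not independent replicates, so these values describe the libraries only. The macrophage genes Mrc1 and C1qb and the class II gene Cd74 were highest in tumor 1 or tumor 2, Bnip3 and Egln3 in tumor 4 followed by tumor 3, and Tnfaip3, Tnf, Cxcl2 and Il23a in tumor 4. With tumor 1 and tumor 2 left out, an alternative chosen after seeing the data, 65 genes were called and 32 of them belonged to the gene lists of cell function, of which 116 members were called with all libraries.

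Next, the difference between sites was set against that of untreated mice, to ask where treatment went with a larger or smaller gap. Among called genes that could be tested in untreated mice, 625 of 631 higher calls and all 367 lower calls had the same sign there, and 343 and 316 were called there too. The test of the difference between both gaps, an interaction across 8047 genes, passed for 255 genes in the positive direction (3.17%) and 27 in the negative direction (0.336%) at an adjusted p under 0.05, and DESeq2 gave 396 and 105. For 111 of the 255 the untreated gap was below 1 on the log2 scale. This comparison leaned on single libraries, with 75 genes left without spleen 3, 447 without spleen 1, 155 and 151 without tumor 1 and tumor 2, and 160 to 181 without untreated tumor 2, 3 or 4. Levels are given as mean ± SD on the scale of that fit, with 3 libraries in treated spleen and 4 in each other group.

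For the genes named first, treated spleen was lower than untreated spleen while tumor levels overlapped or differed less. Vcam1, an adhesion molecule that also marks red pulp macrophages, was at 322 ± 84.03 CPM in treated tumor, 14.9 ± 9.60 CPM in treated spleen, 259.8 ± 99.9 CPM in untreated tumor and 189 ± 92.4 CPM in untreated spleen. Its gap was larger after treatment by 4.03 ± 0.62, adjusted p 0.00687. Mrc1 was at 549 ± 188 CPM in treated tumor, 3.54 ± 2.30 CPM in treated spleen, 974 ± 173 CPM in untreated tumor and 116 ± 71.1 CPM in untreated spleen, a difference of 4.31 ± 0.64, adjusted p 0.00675. Axl, a receptor for apoptotic cells, was at 425 ± 202 CPM in treated tumor, 15.1 ± 10.6 CPM in treated spleen, 423 ± 56.5 CPM in untreated tumor and 162 ± 101 CPM in untreated spleen, a difference of 3.50 ± 0.70, adjusted p 0.0155. In all 3 genes the treated spleen libraries lay below every untreated spleen library. Red pulp macrophage markers as a list summed to 548 ± 132 CPM of the library total in treated spleen (SD, n = 3) and 1309 ± 370 CPM in untreated spleen (n = 4), and the macrophage markers without Ly6c2 to 283 ± 56.9 and 1216 ± 531 CPM. With Ly6c2, which was at 832 ± 218 CPM in treated and 63.3 ± 25.1 CPM in untreated spleen, the macrophage sums were 1115 ± 247 and 1280 ± 511 CPM. The part of macrophages in these differences was not tested.

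The gap was also larger for Mertk (3.47 ± 0.64, adjusted p 0.0108), C1qb (2.74 ± 0.56, adjusted p 0.0168), Lgmn (2.50 ± 0.55, adjusted p 0.0219), Maf (2.50 ± 0.65, adjusted p 0.0458) and Apoe (2.46 ± 0.57, adjusted p 0.028), all of them macrophage, lysosomal or lipid genes named above. Il6st was at 47.7 ± 13.1 CPM in treated tumor, 2.72 ± 0.929 CPM in treated spleen, 69.01 ± 16.7 CPM in untreated tumor and 34.3 ± 18.7 CPM in untreated spleen (3.17 ± 0.57, adjusted p 0.0106). Tlr9, a sensor of unmethylated DNA, differed by 2.73 ± 0.62, adjusted p 0.0247, and Hspa1b, at 1382 ± 278 CPM in treated tumor, 3.78 ± 1.79 CPM in treated spleen, 1234 ± 376 CPM in untreated tumor and 22.03 ± 15.5 CPM in untreated spleen, by 2.66 ± 0.69, adjusted p 0.046. In Hspa1b, too, the tumor ranges overlapped and spleen was lower after treatment. The hypoxia genes P4ha1 (1.95 ± 0.41, adjusted p 0.0198) and Pdk1 (1.61 ± 0.35, adjusted p 0.0201), the apoptosis gene Bax (1.54 ± 0.35, adjusted p 0.0272) and cytochrome c, Cycs (1.61 ± 0.40, adjusted p 0.0381), had larger gaps as well. Ptgs2 missed the limit, at 1221 ± 498 CPM in treated tumor, 2.60 ± 2.86 CPM in treated spleen, 3022 ± 615 CPM in untreated tumor and 40.3 ± 16.1 CPM in untreated spleen (2.62 ± 0.71, adjusted p 0.0541), and at both sites every treated library lay below every untreated one.

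Gaps that were smaller or more negative after treatment were few. Cxcl10 was at 117 ± 60.3 CPM in treated tumor, 41.1 ± 20.2 CPM in treated spleen, 90.2 ± 25.6 CPM in untreated tumor and 3.17 ± 2.20 CPM in untreated spleen, a difference in gap of -3.46 ± 0.64, adjusted p 0.011. Every treated spleen library of Cxcl10 was above every untreated one, while the tumor ranges overlapped. Ifrd1, a transcriptional coregulator, was at 519 ± 185 CPM in treated tumor, 79.95 ± 9.57 CPM in treated spleen, 752 ± 64.3 CPM in untreated tumor and 26.1 ± 5.31 CPM in untreated spleen, a difference of -2.14 ± 0.34, adjusted p 0.00687. Odc1, ornithine decarboxylase of polyamine synthesis, differed by -1.42 ± 0.37, adjusted p 0.0479. Fam117b was lower in tumor by 1.48 on the log2 scale in treated mice and differed by -1.14 ± 0.26, adjusted p 0.0234 from untreated mice. For the interferon-stimulated gene Cmpk2, at 87.9 ± 31.997 CPM in treated tumor, 585 ± 177 CPM in treated spleen, 10.6 ± 3.10 CPM in untreated tumor and 101 ± 28.3 CPM in untreated spleen, both sites were higher in treated mice and the gap differed by 0.53 ± 0.44, adjusted p 0.615. That difference did not pass, which does not show that the gaps are equal.

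**Figure D5:**
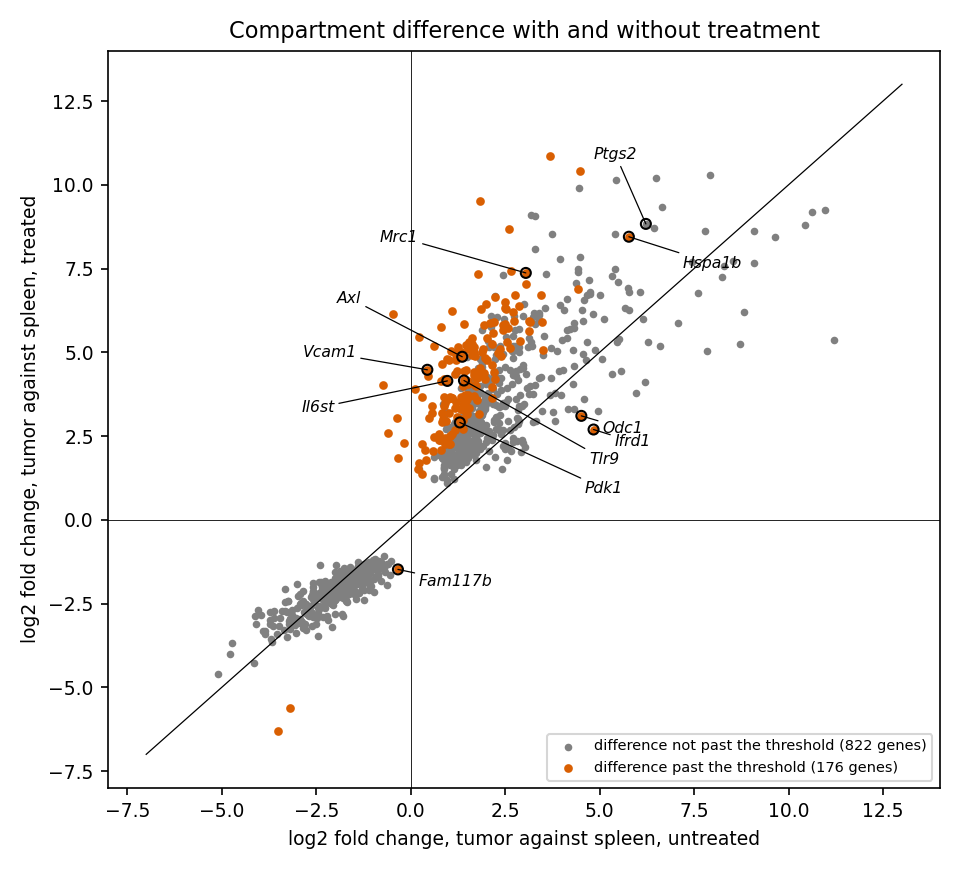
Log2 fold change of tumor against spleen in treated (vertical) and untreated (horizontal) PMN-MDSC for the 998 called genes tested in both, with a line of equality and 176 genes whose difference passed an adjusted p of 0.05 in orange. Most orange points lie above the line, and Ifrd1, Odc1 and Fam117b lie below it.

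Treated M-MDSC gave a further reference, from the same sites and treatment but another sort gate. Of the called genes that could be tested there, 582 of 660 higher and 307 of 336 lower calls had the same sign in M-MDSC. Across 8725 genes the gap between sites differed between PMN-MDSC and M-MDSC for 1616 genes in the positive direction (18.5%) and 1098 in the negative direction (12.6%). A single treated M-MDSC spleen library carried B cell markers at 13780.2 CPM of the library total, and leaving out each M-MDSC spleen library in turn left 2340 to 2445 genes. Levels are again mean ± SD, over 4 tumor and 3 spleen libraries of PMN-MDSC and 3 tumor and 4 spleen libraries of M-MDSC.

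For the genes named first, spleen PMN-MDSC stood apart from the other 3 groups. Prdx1 was at 107 ± 21.9 CPM in tumor PMN-MDSC, 9.01 ± 2.69 CPM in spleen PMN-MDSC, 142 ± 31.7 CPM in tumor M-MDSC and 129 ± 21.7 CPM in spleen M-MDSC, a difference in gap of 3.46 ± 0.36, adjusted p 0.000132. Il6st was at 50.5 ± 12.96 CPM in tumor PMN-MDSC, 3.11 ± 1.03 CPM in spleen PMN-MDSC, 79.9 ± 14.05 CPM in tumor M-MDSC and 115 ± 45.3 CPM in spleen M-MDSC (4.57 ± 0.51, adjusted p 0.000176). Tlr9 was at 78.7 ± 33.4 CPM in tumor PMN-MDSC, 4.69 ± 1.02 CPM in spleen PMN-MDSC, 139 ± 17.5 CPM in tumor M-MDSC and 167 ± 60.9 CPM in spleen M-MDSC (4.30 ± 0.56, adjusted p 0.000315). In M-MDSC none of these 3 genes passed between sites, and in PMN-MDSC each was called higher in tumor. Msr1, a scavenger receptor, differed by 4.48 ± 0.63, adjusted p 0.000459, and Pdia4, a chaperone of the endoplasmic reticulum, by 3.70 ± 0.75, adjusted p 0.00337. The lysosomal genes Ctsc (3.20 ± 0.55, adjusted p 0.00141) and Lgmn (2.64 ± 0.58, adjusted p 0.00486) and the chemokines Ccl4 (3.27 ± 0.76, adjusted p 0.00699) and Ccl9 (3.35 ± 0.54, adjusted p 0.000916) also had larger gaps in PMN-MDSC, as had Calr (2.28 ± 0.39, adjusted p 0.00124) and Cdkn1a (3.46 ± 0.67, adjusted p 0.00255).

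In the negative direction stood genes that spleen PMN-MDSC held at a high level. Mmp9 was at 949.8 ± 342 CPM in tumor PMN-MDSC, 5962 ± 523 CPM in spleen PMN-MDSC, 31.8 ± 12.5 CPM in tumor M-MDSC and 15.7 ± 20.02 CPM in spleen M-MDSC, a difference of -3.70 ± 1.04, adjusted p 0.0174. Cebpd was at 76.8 ± 18.3 CPM in tumor PMN-MDSC, 399 ± 108 CPM in spleen PMN-MDSC, 40.6 ± 13.3 CPM in tumor M-MDSC and 35.1 ± 8.36 CPM in spleen M-MDSC (-2.59 ± 0.40, adjusted p 0.000753). Vsir was at 444 ± 80.3 CPM in tumor PMN-MDSC, 1514 ± 166 CPM in spleen PMN-MDSC, 336 ± 44.6 CPM in tumor M-MDSC and 316 ± 23.99 CPM in spleen M-MDSC (-1.86 ± 0.27, adjusted p 0.000574). In M-MDSC neither Cebpd nor Vsir passed between sites (adjusted p 0.626 and 0.701). Fam117b also had a more negative gap in PMN-MDSC (-1.87 ± 0.24, adjusted p 0.000306). Osm, oncostatin M, and Ifrd1 were higher in tumor in both cell types but with the larger gap in M-MDSC, by -3.26 ± 0.73, adjusted p 0.00562 for Osm and -1.61 ± 0.39, adjusted p 0.0079 for Ifrd1. No difference passed for Hspa1b (2.19 ± 0.95, adjusted p 0.0931) or Vegfa (-1.50 ± 0.78, adjusted p 0.159), which were higher in tumor in both cell types.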

How the data were processed

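Female C57BL/6 mice with orthotopic T110299 tumors gave sorted PMN-MDSC and M-MDSC. Libraries were prepared with a stranded total RNA kit that depletes rRNA sequences during preparation. The authors aligned reads with a BWA-based mapper to the mouse genome (GRCm38) and rRNA, and deposited whole-number counts of fragments per gene and strand, made with featureCounts (Subread 1.4.6-p3) on GENCODE genes. Gene symbols and positions were taken from a GENCODE annotation of the same build, which matched 53274 of 53379 identifiers.

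From the deposited counts, genes averaging 25 counts or more in the 7 libraries were tested in edgeR 4.0.16 (R 4.3.3, limma 3.58.1) with TMM scaling, a robust quasi-likelihood fit and Benjamini-Hochberg adjustment, two-sided. The SE of a log2 fold change is its size divided by the square root of F. Gaps between sites were compared by interaction terms over the 4 PMN-MDSC groups or the 4 treated MDSC groups, and 1 library of the 35, with under 1000 counts, was left out. Alternatives were RLE and upper-quartile scaling, DESeq2 1.42.0, other filters, a fit without robust weighting, a fit on 4 groups, the looser limit and leaving out each library. The fits were also run on simulated counts, and no outcome of that run is given here or used as support. Correlations within groups ran from 0.865 to 0.972, and no pair of libraries agreed within sampling noise. Counting intervals are at 95%.

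Members and gene lists were chosen with earlier results of these data known. Named genes are the 15 highest and 15 lowest calls with a symbol, non-overlapping libraries and at least 10 CPM in the higher group, the 4 smallest adjusted p of each list, 12 preset marker and effector genes, and the 6 highest and 6 lowest differences of each interaction, of which those that carry a result are given. Adgre1, Alox15, Alox5ap, Bnip3, Camp, Ccl3, Ccl6, Csf3r, Cxcl10, Cxcl3, Cxcr2, Egln3, Egr1, Gbp3, Hspa1a, Hspa8, Ifit1, Ifit3, Isg15, Lta4h, Ltb4r1, Ltf, Nfkb1, Ptger2, Ptgs1, Rel, Rela, Relb, Rsad2, Tbxas1 and Tnf fall outside that rule and were chosen after their values were seen. Some genes that the rule names are not reported here.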

Additional observations from a re-analysis of the deposited data

Results flagged for a closer look

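Among 151 genes checked, 9 had a tumor library whose gap to the nearest other tumor library took up more of the range than Dixon's 95% limit allows, which chance alone does in about 1 of 20 groups. Tumor 4 was high for Cycs (52.0 CPM), Ifit1 (626 CPM), Irf9 (193 CPM), Nos2 (379 CPM) and Rsad2 (701 CPM) and low for Pdcd1lg2 (9.57 CPM). Tumor 3 was high for Fosb (711 CPM) and Hbegf (65.1 CPM), and tumor 2 for Ltf (2184 CPM).

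The gap between tumor and spleen differed between treated and untreated PMN-MDSC for 255 genes in the positive and 27 in the negative direction, by the interaction test. On the log2 scale the difference was 4.31 for Mrc1, 4.03 for Vcam1, 3.50 for Axl, 3.47 for Mertk, 3.17 for Il6st, 2.74 for C1qb, 2.73 for Tlr9, 2.66 for Hspa1b, 2.50 for both Lgmn and Maf, 2.46 for Apoe, 1.95 for P4ha1, 1.61 for Pdk1 and Cycs and 1.54 for Bax. It was -3.46 for Cxcl10, -2.14 for Ifrd1, -1.42 for Odc1 and -1.14 for Fam117b.

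Between treated PMN-MDSC and M-MDSC the gap differed for 1616 genes in the positive and 1098 in the negative direction. The difference was 4.57 for Il6st, 4.48 for Msr1, 4.30 for Tlr9, 3.70 for Pdia4, 3.46 for Cdkn1a and Prdx1, 3.35 for Ccl9, 3.27 for Ccl4, 3.20 for Ctsc, 2.64 for Lgmn and 2.28 for Calr. It was -3.70 for Mmp9, -3.26 for Osm, -2.59 for Cebpd, -1.87 for Fam117b, -1.86 for Vsir and -1.61 for Ifrd1.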

How the results depend on the processing

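The count of 1045 genes called between tumor and spleen became 2610 with DESeq2, which shared all 1045, 3545 of 26720 genes without a filter, 554 of 6688 with at least 10 counts in every library, 2246 in the fit on the 4 PMN-MDSC groups and 3347 at the looser limit. RLE scaling, upper-quartile scaling and a fit without robust weighting gave 1044 to 1066. Leaving out 1 library gave 50 (spleen 2) to 1020 (tumor 4) genes, and leaving out both tumor 1 and tumor 2, an alternative added after seeing the data, gave 65. Of the gene lists, 116 members were called, 260 with DESeq2, 318 at the looser limit, 32 without tumor 1 and tumor 2 and 16 to 130 without 1 library. The difference from untreated PMN-MDSC passed for 282 genes, 501 with DESeq2, 676 without a filter, 33 with at least 10 counts in every library, 47 without tumor 1 and tumor 2 and 75 to 447 without 1 library. The difference from M-MDSC passed for 2714 genes, 1448 with at least 10 counts in every library, 1389 without tumor 1 and tumor 2 and 2054 to 3168 without 1 library. Of 151 genes checked singly, the 115 called kept their direction under every alternative run on them, and Nos2, which was not called, ran from -1.18 (adjusted p 0.458, without tumor 4) to 4.66 (adjusted p 0.0532, without spleen 3) when 1 library was left out. The cause of these shifts was not tested, except that fewer libraries leave fewer residual degrees of freedom. No paired analysis was possible because the columns carry no mouse number, and column order was not used in its place. Depth limits the genes with 0 to 3 spleen counts, for which bounds or counting intervals are given.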
